A study of Mus musculus with 9 samples.

Results

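S phase and DNA replication genes were followed in heart RNA of C57BL/6 mice given oxaliplatin and of vehicle mice. The list holds 55 genes named for their part in copying DNA, and 51 of them were among the 13795 genes of the deposited table. Hells, Ccne1, Exo1 and Dscc1 were not analysed here. The list was set by symbol, and it was chosen with earlier results of these data known. Oxaliplatin, a platinum drug used against cancer, was given at 10 mg/kg in the 5 oxaliplatin samples, and the 4 vehicle samples had the vehicle only. Hearts were taken after 8 weeks of treatment, and all mice were of the same strain. The sources used here do not give sex, age, route or number of doses. The labels do not say that each sample is a separate animal, so the p-values refer to variation among these 9 samples and part of it may be technical.

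A cell copies its DNA in steps. In G1 phase, ORC, Cdc6 and Cdt1 load the Mcm helicase on origins. Kinases then turn it into the active helicase with Cdc45 and GINS, and polymerases, the sliding clamp Pcna and its loaders copy both strands while deoxynucleotides and new histones are supplied. E2F factors, held back by the RB family until S phase entry, drive transcription of many of these genes. Most cardiomyocytes of the adult mouse do not divide, and whole heart also holds endothelial, mural, mesothelial and immune cells and fibroblasts. In bulk RNA, more cells that express a gene and more RNA per cell cannot be told apart.

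Totals of the deposited values, in units of 1e+06 normalized counts, ran from 29.4 to 36.1 in oxaliplatin samples and from 30.1 to 36.9 in vehicle samples. Estimated reads in the same units ran from 30.2 to 36.2 in oxaliplatin samples and from 28.5 to 34.3 in vehicle samples. Cardiomyocyte markers summed to between 1177000 and 1643000 normalized counts in oxaliplatin samples and between 1509000 and 1876000 in vehicle samples, none of the 10 was at 0, and 2 fell, the contractile genes Myh6 and Myl2. The 51 members together took 0.0427% to 0.0585% of all normalized counts in oxaliplatin samples and 0.0337% to 0.0386% in vehicle samples. Single member values ran from 3.03 to 2059 normalized counts, and none was 0.

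The comparison of oxaliplatin with vehicle asks how the drug changed heart gene expression. Of the 51 measured S phase and replication genes, 19 rose (37.3%), 0 fell and 32 did not pass in limma with an adjusted p under 0.05. Among all 13788 genes fitted, 9.23% rose and 5.03% fell. At an unadjusted p under 0.05, 27 members were higher and 1, Dut, was lower. Over all 13788 genes fitted, 3970 had such a p in either direction. Voom on estimated reads also put 19 members higher and 0 lower. The median log2 fold change of the members was 0.48, against -0.02 over all genes fitted, and 8 of the 51 had a negative one. Of the 51 members, 11 rose at least 2-fold, against 4.34% of all genes. In 20 members the oxaliplatin samples all lay above the vehicle samples, against 8.99% of all genes. In 0 members they all lay below, against 5.93%. The 20 hold 17 of the members that rose, with Mcm4, Pold3 and Blm, which did not pass. Fen1 and Atad2 rose although their groups overlapped.

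The deposited table holds only genes that reached at least 40.6 normalized counts in some sample. In every vehicle sample 11 members lay below that level, so they are in the table only through oxaliplatin samples. They are Cdc6, Cdt1, Mcm10, Chaf1b, Rad51ap1, Wdr76, Blm, Clspn, Dtl, E2f1 and E2f8. Of them 5 rose, Cdc6, Chaf1b, Rad51ap1, Dtl and E2f1, each at least 2-fold and with no overlap between groups. Blm had no overlap either. The counts of 2-fold rises and of groups without overlap therefore carry this limit too. Of the other 40 members 14 rose, with a median log2 fold change of 0.28, while 8.2% of all genes that reached the level in a vehicle sample rose. No count over the measured members therefore speaks for the whole list of 55. The counts and medians of single roles given below carry the same limit where the role holds any of these 11.

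**Figure D1:**
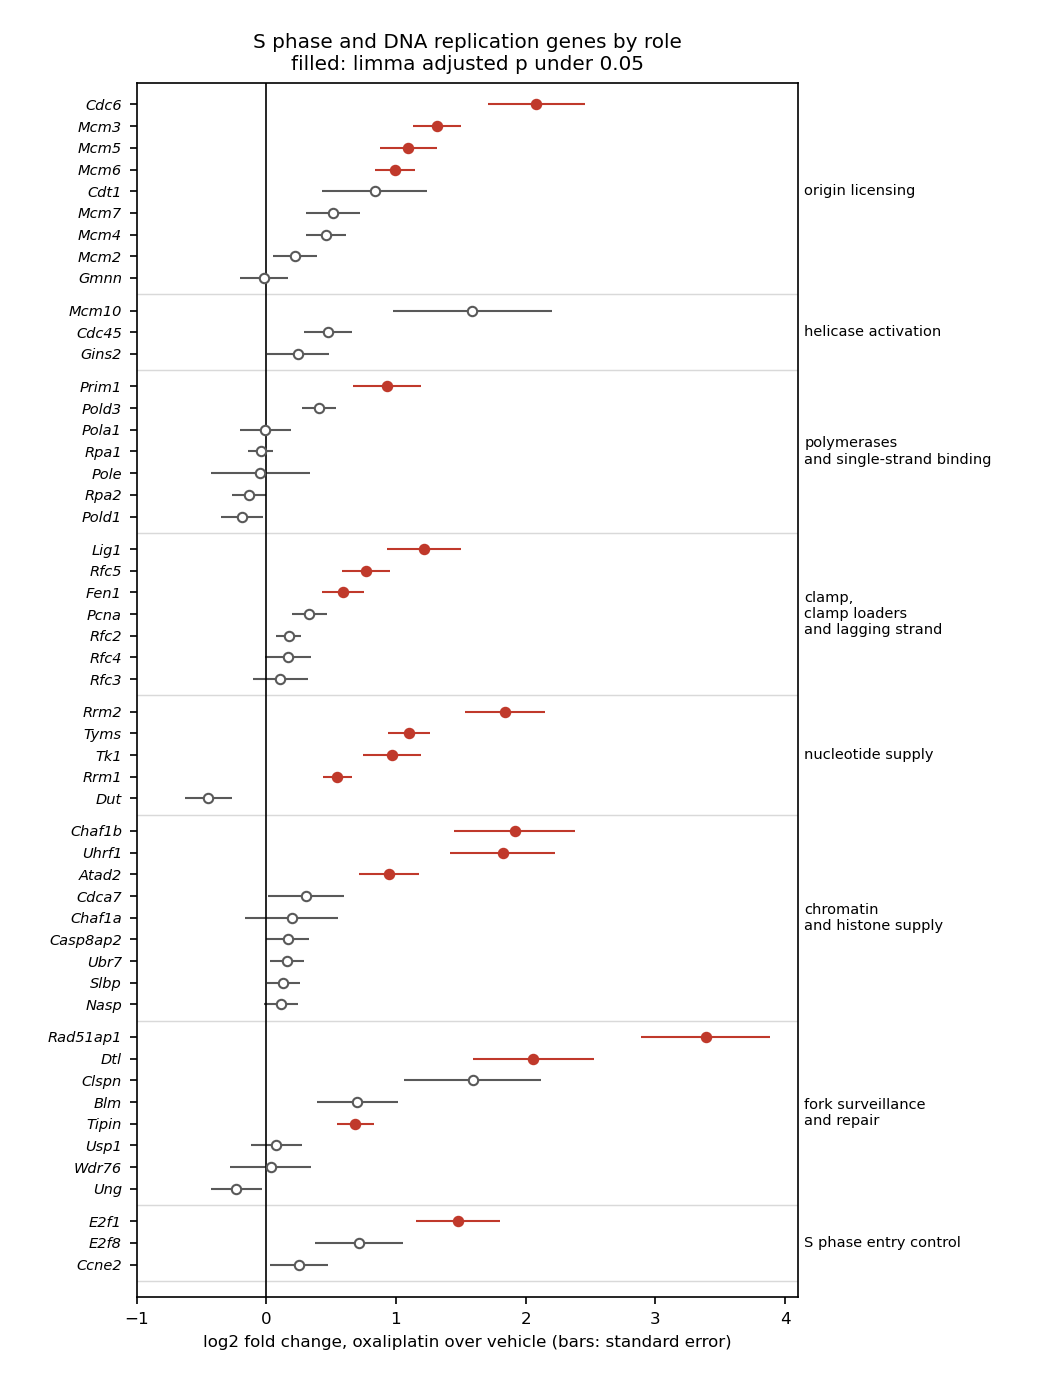
Log2 fold change of oxaliplatin over vehicle on the horizontal axis for each of the 51 measured members, grouped by role, with the standard error as a bar. Filled points mark the 19 members with a limma adjusted p under 0.05, which run from Rrm1 at 0.55 to Rad51ap1 at 3.39, and Dut is the lowest of all at -0.45.

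The promoters of the members were compared by their letters, since E2F factors are known to drive many S phase genes. RefSeq promoter windows on GRCm38.p6, of 300 bases from 250 before the transcription start, were matched by symbol for 44 of the 55 members and for 17 of the 19 that rose. The E2F core was searched as GCGGGAA or GCGCGAA on either strand, and a gene with several windows counted if any of them held it. It was present for 12 of the 17 members that rose (70.6%) and for 26 of all 44 members (59.1%). Over all 27025 genes with a window the share was 6.86%. The CHR element, searched as TTTGAA or TTCGAA on either strand and known from genes of G2 and mitosis, was the second. It was present for 1 of the 17 (5.88%) and 8 of the 44 (18.2%), against 21.7% of all genes, while 36 of 46 G2 and mitosis genes (78.3%) held it and 4 (8.7%) held the E2F core. The NF-Y box, searched as CCAAT on either strand, was present for 9 of the 17 (52.9%), 35 of the 46 (76.1%) and 41.1% of all genes. A match is a string of letters and not a shown binding site, and the differences between these shares were not tested. The list was set as S phase genes, many of them known to be driven by E2F, so a high share comes with the list. It does not bear on why members rose. The 27025 genes also include genes outside the 13795 of the deposited table.

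The stretches of 5 members are printed because these have the smallest p-values among members that hold the core. Each stretch is 200 bases, from 170 before the start to 30 from the start on, 5′ to 3′ along the gene, from RefSeq on GRCm38.p6, and capitals mark the E2F core. Mcm3 lies on the minus strand, chr1:20820283-20820482, and its core begins 19 bases after the start base.
Mcm3: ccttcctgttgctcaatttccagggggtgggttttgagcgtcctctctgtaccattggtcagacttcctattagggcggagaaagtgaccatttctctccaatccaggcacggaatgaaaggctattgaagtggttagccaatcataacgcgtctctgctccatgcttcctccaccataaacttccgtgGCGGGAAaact
Rad51ap1 lies on the minus strand, chr6:126939558-126939757, with its core 12 bases after the start base.
Rad51ap1: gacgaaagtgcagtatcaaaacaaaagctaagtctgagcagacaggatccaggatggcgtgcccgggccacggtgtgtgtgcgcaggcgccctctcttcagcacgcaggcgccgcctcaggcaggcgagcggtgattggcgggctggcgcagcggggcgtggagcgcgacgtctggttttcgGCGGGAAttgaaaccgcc
Mcm6 lies on the minus strand, chr1:128359676-128359875, and has 2 cores in the stretch and 1 more that runs past its end.
Mcm6: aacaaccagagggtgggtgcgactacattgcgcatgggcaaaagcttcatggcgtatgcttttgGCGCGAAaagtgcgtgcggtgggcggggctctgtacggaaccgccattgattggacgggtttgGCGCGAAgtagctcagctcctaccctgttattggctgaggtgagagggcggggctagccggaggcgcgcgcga
Cdc6 lies on the plus strand, chr11:98907981-98908180.
Cdc6: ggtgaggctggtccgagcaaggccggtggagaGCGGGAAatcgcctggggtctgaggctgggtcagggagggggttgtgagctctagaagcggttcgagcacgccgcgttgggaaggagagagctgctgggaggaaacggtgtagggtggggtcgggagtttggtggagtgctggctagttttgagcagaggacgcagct
Mcm5 lies on the plus strand, chr8:75109339-75109538, with the core read from the other strand.
Mcm5: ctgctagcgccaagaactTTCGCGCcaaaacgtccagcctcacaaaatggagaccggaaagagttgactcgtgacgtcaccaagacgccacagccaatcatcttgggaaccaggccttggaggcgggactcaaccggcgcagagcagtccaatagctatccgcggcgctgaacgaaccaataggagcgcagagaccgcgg

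**Figure D2:**
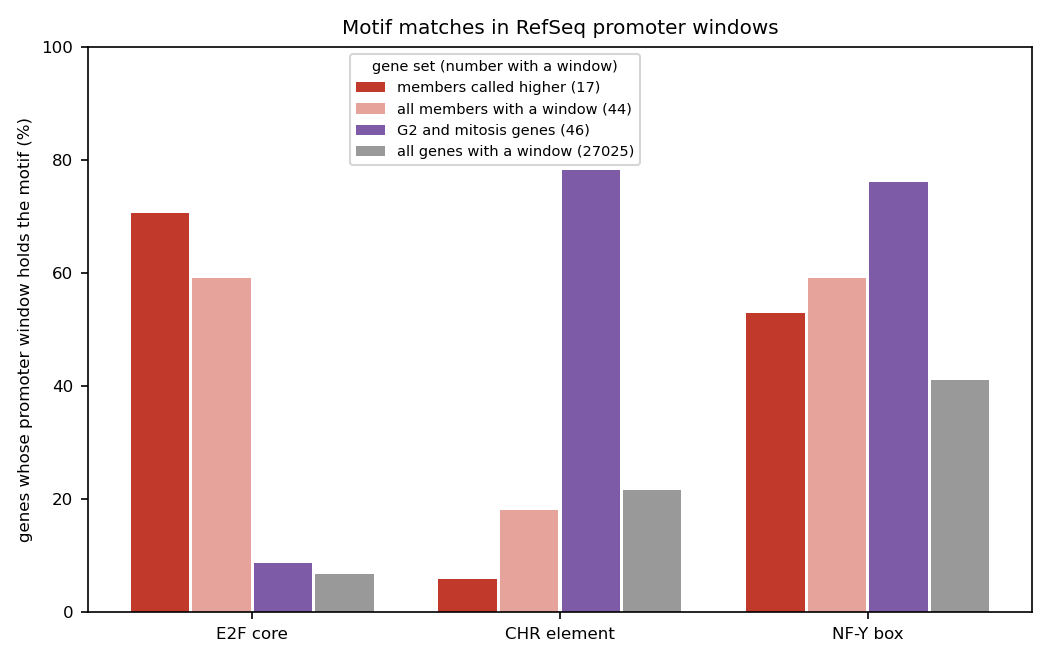
Share of genes, in percent, whose RefSeq promoter window holds an E2F core, a CHR element or an NF-Y box, for the members that rose, all members with a window, G2 and mitosis genes, and all genes with a window. The E2F core stands at 70.6% of the 17 members that rose, 59.1% of all 44 members with a window and 6.86% of all genes. The CHR element stands at 78.3% of the 46 G2 and mitosis genes.

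Origin licensing genes rose in part. Of 9 members, 4 rose, the loader Cdc6 and the helicase subunits Mcm3, Mcm5 and Mcm6, and their role's median log2 fold change was 0.84. Cdc6 and Cdt1 lay below 40.6 normalized counts in every vehicle sample, so this count and median depend on how the table was filtered. Mcm3 had 485, 288, 548, 391 and 473 normalized counts in oxaliplatin samples 1 to 5, against 200, 161, 150 and 177 in vehicle samples 1 to 4 (log2 fold change 1.32, its standard error (SE) 0.18, limma adjusted p = 0.00104). Every oxaliplatin sample lay above every vehicle sample, and oxaliplatin 2 was the lowest of the drug group. Mcm6 had 318, 315, 414, 357 and 448 normalized counts in oxaliplatin samples, against 220, 174, 173 and 171 in vehicle samples (1.99-fold, limma adjusted p = 0.00168). The groups did not overlap, and vehicle 1 stood above the other vehicle samples.

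Cdc6 had 40.6, 59.9, 96.4, 41.5 and 79.8 normalized counts in oxaliplatin samples, against 14.3, 13.4, 20.4 and 8.07 in vehicle samples (log2 fold change 2.08, limma adjusted p = 0.00397). The groups did not overlap, and with 10 in place of 1 added before taking logs the log2 fold change was 1.57. Mcm5 averaged 272.8 ± 90.1 normalized counts in oxaliplatin samples and 123.3 ± 18.4 in vehicle samples (SD, n = 5 and n = 4), a 2.14-fold rise. The 6 subunits of the Mcm2-7 ring work in equal number, but their RNAs did not all pass. Mcm4 reached 1.37-fold (limma adjusted p = 0.0633), Mcm7 1.43-fold (0.117) and Mcm2 1.17-fold (0.423). Mcm7 passed without oxaliplatin 1 (adjusted p = 0.017). Cdt1, the other loader, had a log2 fold change of 0.84 with a standard error of 0.41 (adjusted p = 0.194).

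Gmnn encodes geminin, which binds Cdt1 and blocks new loading once S phase has begun. It had 2059, 1201, 1383, 1037 and 1705 normalized counts in oxaliplatin samples, against 1362, 1548, 1721 and 1220 in vehicle samples (log2 fold change -0.02, SE 0.18). The groups overlapped fully, with the lowest and highest value both in oxaliplatin samples.

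Of the 3 helicase activation genes 0 rose and 0 fell in limma, and voom on estimated reads put 0 higher. An unadjusted p under 0.05 was reached by 2 of them, against 3970 of all 13788 genes. Mcm10, which activates the loaded helicase, had 11.9, 15.0, 68.3, 25.2 and 17.9 normalized counts in oxaliplatin samples, against 5.98, 5.58, 15.1 and 4.03 in vehicle samples (log2 fold change 1.59, SE 0.61, limma adjusted p = 0.103). Oxaliplatin 3 stood far above the rest. Cdc45, a partner of the moving helicase, had 125, 102, 134, 168 and 159 normalized counts in oxaliplatin samples, against 98.0, 104, 95.7 and 91.8 in vehicle samples (1.39-fold, adjusted p = 0.101). Only oxaliplatin 2 fell within the vehicle range, and without it Cdc45 passed (adjusted p = 0.0395). Gins2, a subunit of GINS, had 113, 139, 254, 190 and 213 normalized counts in oxaliplatin samples, against 142, 110, 173 and 174 in vehicle samples (1.18-fold, adjusted p = 0.543). In GENCODE M21, exons of Gse1 on the other strand cover 67.3% of the exon length of Gins2, and without a stated strand setting their reads cannot be told apart.

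Polymerase and single-strand binding genes mostly did not pass. Of 7 members 1 rose, the primase subunit Prim1, and the median log2 fold change was -0.04. Prim1 had 58.5, 60.8, 118, 62.6 and 91.5 normalized counts in oxaliplatin samples, against 39.4, 41.3, 31.2 and 45.4 in vehicle samples (1.91-fold, limma adjusted p = 0.0337). The groups did not overlap, but the call was lost without oxaliplatin 3 (0.0877), oxaliplatin 5 (0.0817), vehicle 1 (0.0637), vehicle 2 (0.0692) or vehicle 3 (0.101), and in voom (0.0585). Pold3, an accessory subunit of polymerase delta, had 355, 284, 376, 359 and 319 normalized counts in oxaliplatin samples, against 276, 240, 229 and 272 in vehicle samples (1.33-fold, adjusted p = 0.0566). Its groups did not overlap, and it passed without oxaliplatin 2 (0.0292).

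The catalytic polymerase subunits had log2 fold changes near 0. Pola1, of the polymerase that extends primers, had 123, 122, 117, 85.3 and 83.4 normalized counts in oxaliplatin samples, against 102, 106, 127 and 89.8 in vehicle samples (log2 fold change -0.01, SE 0.20). Pold1 of polymerase delta and Pole of polymerase epsilon had log2 fold changes of -0.19 and -0.04, with standard errors of 0.16 and 0.38. The single-strand binding subunits Rpa1 and Rpa2 had -0.04 and -0.13, with standard errors of 0.09 and 0.13. That these genes did not pass does not show that they were equal between groups.

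Among genes of the clamp, its loaders and the lagging strand, 3 of 7 rose, Lig1, Rfc5 and Fen1. Lig1, the ligase that seals Okazaki fragments, had 125, 122, 180, 123 and 169 normalized counts in oxaliplatin samples, against 72.9, 60.3, 31.2 and 96.8 in vehicle samples (2.32-fold, limma adjusted p = 0.0138). Rfc5, a subunit of the clamp loader, had 162, 164, 221, 190 and 218 normalized counts in oxaliplatin samples, against 139, 113, 113 and 83.9 in vehicle samples (1.7-fold, adjusted p = 0.0146). Neither gene had an overlap between groups. Rfc3, another subunit of the same loader, had 173, 104, 173, 184 and 173 normalized counts in oxaliplatin samples, against 167, 191, 125 and 116 in vehicle samples (1.08-fold, adjusted p = 0.776). Oxaliplatin 2 was the lowest of all 9 samples for it. The loader subunits Rfc2 and Rfc4 stood at 1.13-fold and 1.12-fold, and neither passed.

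Pcna, the sliding clamp and a common marker of S phase, did not pass. It had 806, 583, 804, 801 and 863 normalized counts in oxaliplatin samples, against 636, 676, 628 and 502 in vehicle samples (1.26-fold, limma adjusted p = 0.124). Of the 5 drug samples, 4 lay above every vehicle sample and oxaliplatin 2 lay inside the vehicle range. Without oxaliplatin 2 the gene passed (adjusted p = 0.0259), as it did in voom (0.0441) and with samples scaled to equal totals without mitochondrially encoded genes (0.049). Fen1, the flap endonuclease, averaged 447.6 ± 83.1 normalized counts in oxaliplatin samples and 292.7 ± 32.4 in vehicle samples (1.51-fold, adjusted p = 0.0271). The Fen1 call was lost without oxaliplatin 3 (0.0644), oxaliplatin 4 (0.0555), oxaliplatin 5 (0.0652), vehicle 2 (0.0594), vehicle 3 (0.0856) or vehicle 4 (0.0624). Exons of other genes on the opposite strand, among them Tmem258, cover 84.2% of its exon length, so its reads are uncertain.

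**Figure D3:**
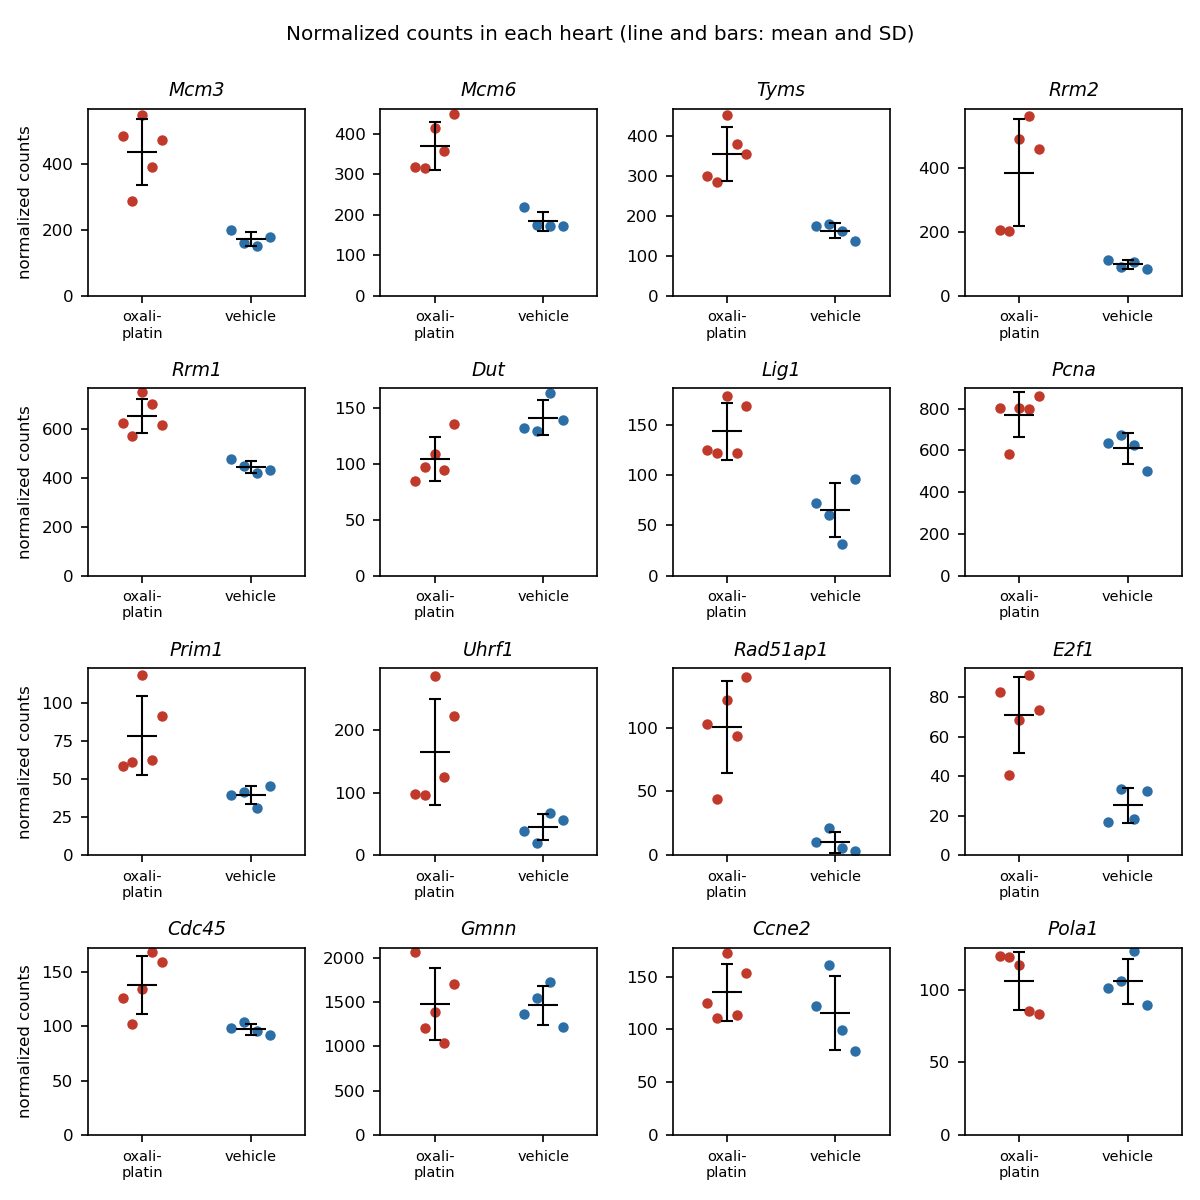
Normalized counts on the vertical axis of 16 members in each of the 5 oxaliplatin and 4 vehicle heart samples, with group means and SDs as black lines. Mcm3, Mcm6, Tyms, Rrm2 and Rad51ap1 show no overlap between groups, while Gmnn, Ccne2 and Pola1 overlap.

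Nucleotide supply had the highest share of genes that rose among the roles, 4 of 5, with a median log2 fold change of 0.97. Tyms, thymidylate synthase, had 300, 284, 454, 380 and 356 normalized counts in oxaliplatin samples, against 174, 180, 162 and 137 in vehicle samples (2.14-fold, limma adjusted p = 0.0014). Rrm2, the S phase subunit of ribonucleotide reductase, had 208, 204, 493, 564 and 462 normalized counts in oxaliplatin samples, against 112, 91.6, 106 and 82.7 in vehicle samples (log2 fold change 1.84, SE 0.31, adjusted p = 0.00315). Both genes had groups without overlap, and for Rrm2 oxaliplatin 1 and 2 were less than a 2-fold step above the highest vehicle sample. Rrm1, the large subunit of the same enzyme, had 626, 572, 751, 702 and 616 normalized counts in oxaliplatin samples, against 477, 450, 421 and 432 in vehicle samples (1.46-fold, adjusted p = 0.0075). Tk1, the thymidine kinase of dividing cells, averaged 270.7 ± 82.2 and 133.1 ± 17.7 normalized counts in oxaliplatin and vehicle samples, a 1.96-fold rise.

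Dut, which breaks down dUTP and so keeps uracil out of DNA, ran the other way without passing. It had 84.8, 96.9, 109, 94.3 and 135 normalized counts in oxaliplatin samples, against 131, 130, 163 and 139 in vehicle samples (log2 fold change -0.45, limma adjusted p = 0.119, unadjusted p = 0.0278). Oxaliplatin 5 was the only drug sample inside the vehicle range.

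Ratios within a sample were used to ask whether partner genes changed unequally. Of 10 pairs set for this, 8 were measured, and each was tested with a two-sided exact permutation test over the samples, whose smallest possible p is 0.0159. The log2 ratio of Rrm2 to Rrm1 averaged -0.88 ± 0.61 in oxaliplatin samples and -2.18 ± 0.18 in vehicle samples (SD, n = 5 and n = 4). The difference was 2.45-fold, without overlap (exact permutation p = 0.0159, adjusted over the pairs 0.0423). Rrm2 was also set against Rrm2b, the subunit that p53 induces and that serves cells outside S phase. This ratio averaged 0.24 ± 0.94 in oxaliplatin samples and -1.86 ± 0.26 in vehicle samples, a 4.31-fold difference (exact permutation p = 0.0159, adjusted 0.0423). Rrm2b itself had 313, 381, 337, 235 and 250 normalized counts in oxaliplatin samples, against 374, 440, 351 and 284 in vehicle samples, with overlap (log2 fold change -0.26, limma adjusted p = 0.346). The third ratio to pass was Uhrf1 to Dnmt1, at -1.30 ± 0.48 in oxaliplatin samples and -2.87 ± 0.61 in vehicle samples, a 2.97-fold difference (exact permutation p = 0.0159, adjusted 0.0423). None of the 3 calls held with any 1 of the 9 samples left out, where the adjusted p of these ratios ran from 0.0571 to 0.0952 in exact permutation tests. With a sample left out the smallest possible p is 0.0286 or 0.0357 before adjustment. Under the replicate block and without the 3 samples high in atrial markers no pair could pass, since the smallest possible exact permutation p is 0.125 and 0.1. The other 5 pairs did not pass. They were Chaf1b to Chaf1a (3.29-fold), Mcm10 to Mcm2 (2.58-fold), Cdt1 to Gmnn (1.81-fold), Tk1 to Tk2 (1.77-fold) and E2f8 to E2f1 (0.59-fold), with exact permutation p adjusted over the pairs from 0.0762 to 0.143.

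Of 9 measured genes of chromatin and histone supply 3 rose, Uhrf1, Chaf1b and Atad2, and the median log2 fold change was 0.20. Uhrf1, which brings the methyltransferase Dnmt1 to newly copied DNA, had 98.0, 96.0, 286, 125 and 221 normalized counts in oxaliplatin samples, against 38.2, 20.1, 67.8 and 56.5 in vehicle samples (log2 fold change 1.82, SE 0.40, limma adjusted p = 0.0118). Dnmt1 had 257, 384, 488, 341 and 415 normalized counts in oxaliplatin samples, against 311, 269, 338 and 324 in vehicle samples, with overlap (log2 fold change 0.25, adjusted p = 0.36). Chaf1b had 58.5, 26.4, 99.0, 52.8 and 95.9 normalized counts in oxaliplatin samples, against 26.3, 23.5, 7.53 and 11.1 in vehicle samples (log2 fold change 1.92, adjusted p = 0.0159). Its groups touch, since oxaliplatin 2 and vehicle 1 are almost equal, and the call was lost without vehicle 3 (0.0539).

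Chaf1a, the partner of Chaf1b in the histone chaperone CAF-1, had 72.9, 30.9, 41.0, 72.1 and 41.4 normalized counts in oxaliplatin samples, against 68.9, 27.7, 30.4 and 55.6 in vehicle samples (1.15-fold, limma adjusted p = 0.758). The groups overlapped. Exons of Ubxn6 on the other strand cover 52.5% of the exon length of Chaf1a. Atad2, a chromatin ATPase, rose 1.93-fold (adjusted p = 0.017), and its call was lost without vehicle 2 (0.0553) or vehicle 3 (0.0622). The histone chaperone Nasp, the histone mRNA binding protein Slbp, Ubr7, Casp8ap2 and Cdca7 had log2 fold changes from 0.11 to 0.31 and did not pass.

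Among 8 measured genes of fork surveillance and repair 3 rose, Rad51ap1, Dtl and Tipin. Rad51ap1, Dtl, Wdr76, Blm and Clspn lay below 40.6 normalized counts in every vehicle sample. They are in the table only through oxaliplatin samples, and Tipin is not among them. Rad51ap1, a factor of homologous recombination, had 103, 44.0, 122, 93.5 and 140 normalized counts in oxaliplatin samples, against 10.8, 21.2, 5.38 and 3.02 in vehicle samples (log2 fold change 3.39, SE 0.49, limma adjusted p = 0.00131). With 10 in place of 1 added before taking logs, the log2 fold change was 2.46. No other measured member had a larger fold change, and its groups did not overlap. Tipin, which with Timeless steadies the fork, had 482, 405, 426, 429 and 495 normalized counts in oxaliplatin samples, against 316, 333, 242 and 231 in vehicle samples (1.61-fold, adjusted p = 0.00759). Dtl, the adaptor that marks Cdt1 for destruction in S phase, averaged 46.5 ± 25.7 normalized counts in oxaliplatin samples and 10.2 ± 4.76 in vehicle samples (log2 fold change 2.06, adjusted p = 0.0114).

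Other genes of that role did not pass. Clspn, which passes the signal of stalled forks to Chk1, had a log2 fold change of 1.59 (SE 0.53, limma adjusted p = 0.0621). It passed without oxaliplatin 2 (0.017) and without trend and robust moderation (0.0336). The helicase Blm stood at 1.63-fold (adjusted p = 0.157) and Usp1, which takes ubiquitin off Pcna, at 1.06-fold (0.83). Wdr76 had 26.4, 46.8, 54.4, 31.8 and 27.8 normalized counts in oxaliplatin samples, against 39.5, 40.4, 34.6 and 27.4 in vehicle samples (1.02-fold, adjusted p = 0.959). Ung, which cuts uracil out of DNA, had a log2 fold change of -0.23 (adjusted p = 0.471).

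Of the 3 measured genes of S phase entry control 1 rose, E2f1. E2f1 and E2f8 lay below 40.6 normalized counts in every vehicle sample and are in the table only through oxaliplatin samples. E2f1, an activator of S phase genes, had 82.4, 40.5, 68.3, 91.0 and 73.5 normalized counts in oxaliplatin samples, against 16.7, 33.5, 18.3 and 32.3 in vehicle samples (log2 fold change 1.48, SE 0.32, limma adjusted p = 0.00967). The groups did not overlap. E2f8, a repressor of the same family, had 52.6, 21.1, 56.9, 40.6 and 56.5 normalized counts in oxaliplatin samples, against 28.7, 26.8, 24.7 and 23.2 in vehicle samples (1.64-fold, adjusted p = 0.183). Oxaliplatin 2 was the lowest of all samples, and without it E2f8 passed (0.0345). Ccne2, a cyclin that activates Cdk2 at S phase entry, had 125, 111, 173, 114 and 154 normalized counts in oxaliplatin samples, against 122, 161, 99.3 and 79.4 in vehicle samples (1.19-fold, adjusted p = 0.496).

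The drug samples differed among themselves in a shared way. Oxaliplatin 3 had the highest value of the 5 drug samples for 28 of the 51 members (54.9%), against 15.4% of all genes fitted and 19% of all genes that rose. Oxaliplatin 2 had the lowest value for 28 members (54.9%), against 23.1% of all genes and 63.3% of all genes that rose. Counted against vehicle, 40 members in oxaliplatin 3 and 27 in oxaliplatin 2 lay above every vehicle sample, with 33, 35 and 35 in oxaliplatin 1, 4 and 5. Over all genes these shares ran from 26.2% to 30.3%. The erythroid marker score, a mean of gene-centred log2 values, was also highest of the drug samples in oxaliplatin 3 (2.04) and lowest in oxaliplatin 2 (-3.12). Macrophage and neutrophil scores were highest in oxaliplatin 3 too, but lowest in oxaliplatin 1 and 5. Fibroblast, mural and mesothelial scores were highest in oxaliplatin 4. Whether cell content sets the order of the members was not tested. The number of members that rose was 17 without oxaliplatin 3 and 24 without oxaliplatin 2. The 3 samples with high atrial markers, oxaliplatin 2, oxaliplatin 4 and vehicle 1, were also left out together, and 20 members then rose. Atrial markers summed to between 27680 and 864400 normalized counts in oxaliplatin samples and between 12440 and 396800 in vehicle samples, and 0 of 8 passed, with 0 at an unadjusted p under 0.05.

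**Figure D4:**
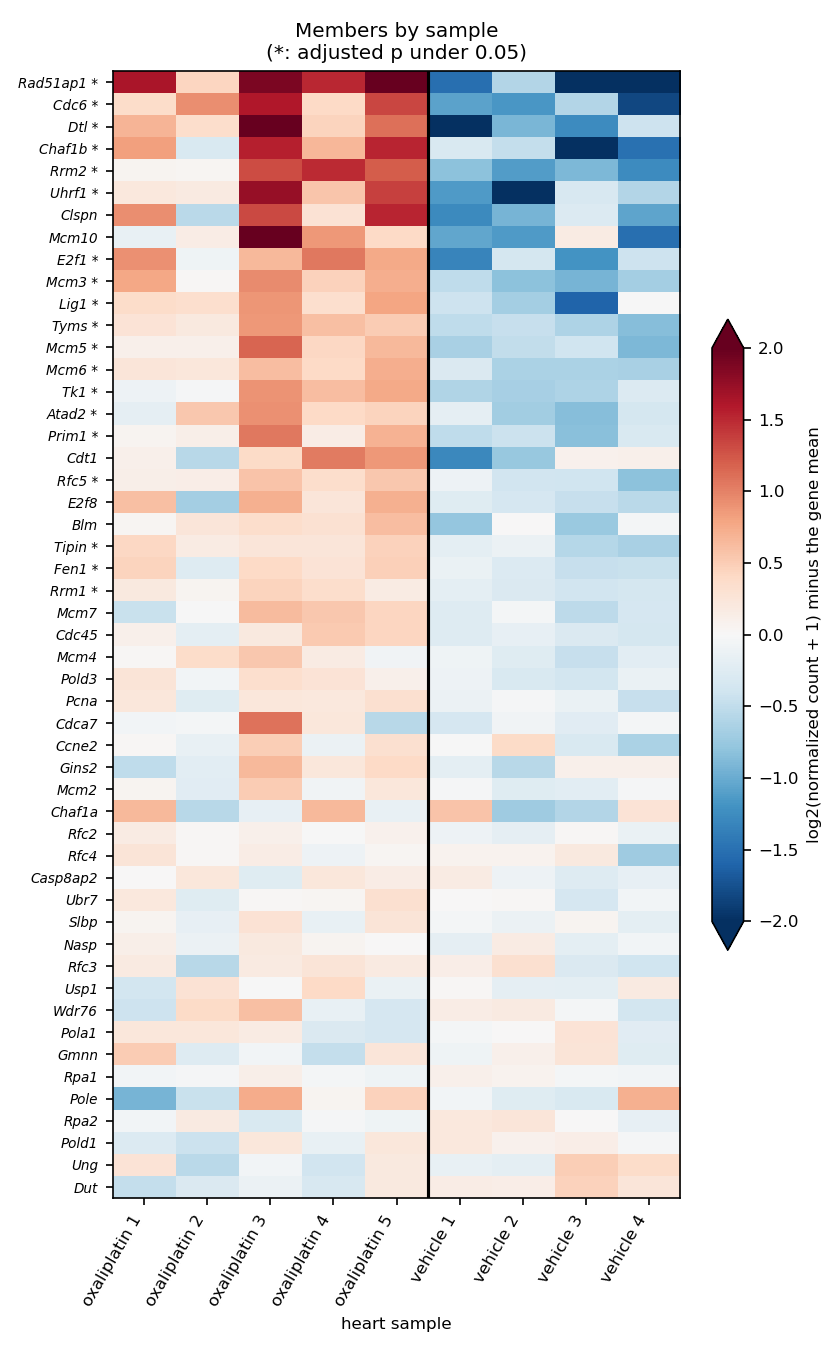
Log2(normalized count + 1) minus the gene's mean over all samples, by colour, for the 51 members (rows, by fold change) in 5 oxaliplatin and 4 vehicle samples (columns). Of the 19 members that rose (starred), oxaliplatin 3 is the highest drug sample in 13 and oxaliplatin 2 the lowest in 13, and rows near the bottom show no split between groups.

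Other genes of the pathway were taken from lists that hold no member. Of 38 measured genes of the replication fork and origins 8 rose (21.1%) and 3 fell, with a median log2 fold change of 0.17. Over all genes fitted 9.23% rose and 5.03% fell. Of the 38, 6 lay below 40.6 normalized counts in every vehicle sample. Of those 6, 4 rose, Ccna2, Pclaf, Cdc7 and Wdhd1. Of the other 32 genes 4 rose (12.5%), against 8.2% of all genes that reached that level in a vehicle sample. Ccna2, the S and G2 phase cyclin A, rose by 3.51 on the log2 scale, the Pcna-associated factor Pclaf by 2.73 and the histone chaperone Asf1b by 1.48. The other 5 were Cdc7, Orc6, Prim2, Ssrp1 and Wdhd1, named after their values were seen. Rfc1, the large subunit of the clamp loader, fell by 0.50, Pold2 of polymerase delta by 0.32 and Rnaseh2c by 0.50. Of 24 other genes of nucleotide synthesis 0 rose in limma. An unadjusted p under 0.05 in either direction was reached by 6 of them, against 3970 of all 13788 genes. The dNTP pyrophosphatase Dctpp1 fell by 0.57 (limma adjusted p = 0.0207). Of 22 genes of G1 and E2F-RB control 4 rose, Cdk6 by 0.95, E2f7 by 2.07, Ccnd1 by 1.02 and Foxm1 by 2.99 on the log2 scale. Of the 22, 3 lay below 40.6 in every vehicle sample, and 2 of the 4 that rose, E2f7 and Foxm1, are among them. Of the other 19 genes 2 rose (10.5%), against the same 8.2%.

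Of 9 measured cell cycle brakes 1 rose (11.1%) and 1 fell, against 9.23% and 5.03% of all genes. Cdkn1a, the p21 inhibitor that p53 induces and that binds both Cdk2 and Pcna, had 7913, 1790, 3564, 4823 and 6581 normalized counts in oxaliplatin samples, against 299, 543, 576 and 854 in vehicle samples (log2 fold change 3.04, SE 0.47, limma adjusted p = 0.0048). Cdkn1c, the p57 inhibitor, fell by 0.86 (adjusted p = 0.045).

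Genes of G2 and mitosis act after S phase. Of 52 measured, 41 rose (78.8%) and 0 fell in limma, 43 had an unadjusted p under 0.05, and voom put 27 higher. Over all 13788 genes 9.23% rose, and 3970 had an unadjusted p under 0.05. The count of 41 is bound to how the table was filtered. Of the 52, 30 lay below 40.6 normalized counts in every vehicle sample and are in the table only through oxaliplatin samples. All 30 are among the 41. Of the other 22 genes 11 rose, with a median log2 fold change of 0.51, against 14 of 40 and 0.28 for S phase members split the same way. Over all 52 the median was 2.72, and it carries the same limit. Tpx2, Ckap2 and Psrc1, which act on the spindle, rose by 3.18, 4.45 and 3.40 on the log2 scale, and all are among the 30. Mki67, the Ki-67 antigen of cycling cells, had 87.2, 83.7, 305, 132 and 230 normalized counts in oxaliplatin samples, against 13.1, 7.82, 12.9 and 53.5 in vehicle samples (log2 fold change 3.07, adjusted p = 0.0045). Oxaliplatin 3 was again the highest and oxaliplatin 2 the lowest. The difference between both lists was not tested. G2 and mitosis genes with a mean of at least 100 had a median log2 fold change of 0.84, and S phase members with such a mean one of 0.29. That mean is over all samples, so a gene can reach it through oxaliplatin samples alone. Ckap2, with means of 256.1 in oxaliplatin and 10.65 in vehicle samples, is such a gene. The G2 and mitosis median of 0.84 is therefore not free of the filter's limit.

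**Figure D5:**
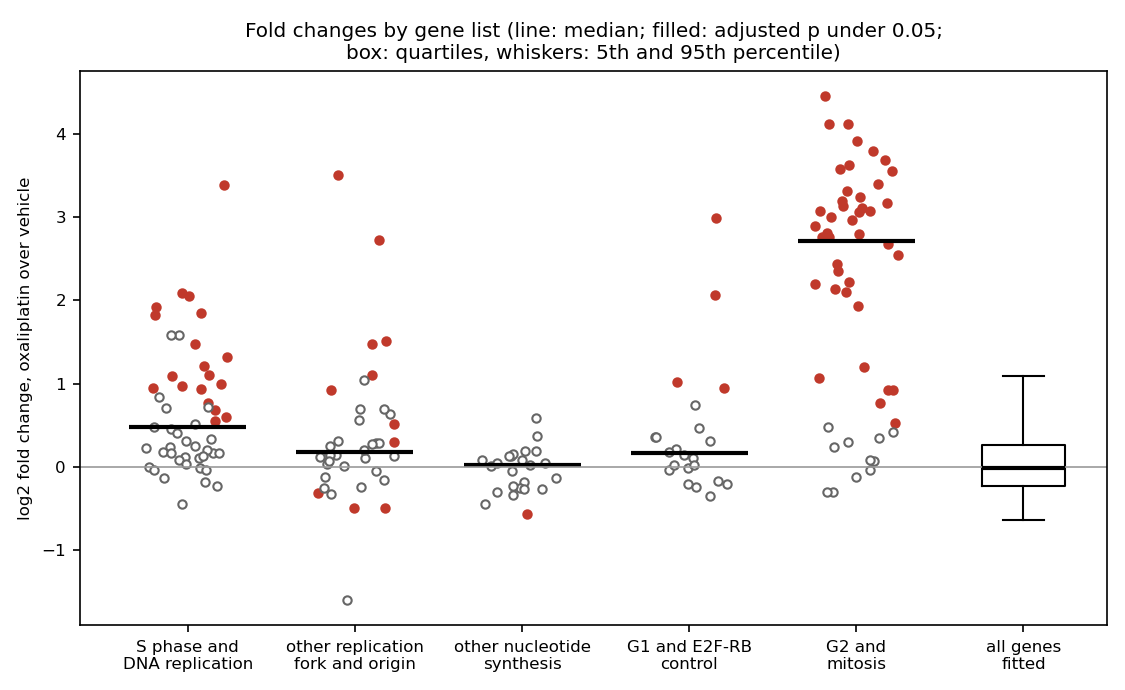
Log2 fold change of oxaliplatin over vehicle for genes of 5 lists (points, filled where the adjusted p was under 0.05, with the median as a line) and for all 13788 genes fitted (box). The medians are 0.48 for the S phase and DNA replication genes, 2.72 for G2 and mitosis and 0.02 to 0.17 for the other lists. Genes below 40.6 normalized counts in every vehicle sample are in the table only through oxaliplatin samples, 11 of the 51 S phase and 30 of the 52 G2 and mitosis genes, and without them these medians are 0.28 and 0.51.

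Markers of other cell types were followed in the same samples, where 9.23% of all genes rose. Endothelial markers summed to between 23320 and 40230 normalized counts in oxaliplatin samples and between 19130 and 19950 in vehicle samples, and 3 of 10 rose, with Pecam1 up by 1.33 on the log2 scale. Mesothelial markers, of the heart's outer lining, summed to between 2487 and 4906 in oxaliplatin samples and between 180.5 and 829.4 in vehicle samples, and 3 of 6 rose. For fibroblast markers 1 of 10 rose, for mural cell markers 1 of 9 and for macrophage markers 1 of 10, shares near that of all genes. At an unadjusted limma p under 0.05 stood 8 of 10 endothelial and 6 of 6 mesothelial markers, and all markers of both lists had a positive log2 fold change. In either direction, 1 fibroblast, 6 mural and 3 macrophage markers had such a p, against 3970 of all 13788 genes. The median log2 fold change was 0.59 for mural and 0.57 for endothelial markers. Marker sums overlapped between groups for fibroblasts and macrophages, at 73900 to 167300 in oxaliplatin against 75430 to 109700 in vehicle samples and 6372 to 16560 against 7702 to 9815. Mural sums ran from 21410 to 37320 in oxaliplatin samples and from 14650 to 21620 in vehicle samples, with a small overlap.

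Blood cells leave RNA in whole hearts as well. Of lymphocyte markers 2 of 10 were measured and both fell, the B cell genes Cd79a and Cd79b, with sums of 11.9 to 34.4 normalized counts in oxaliplatin samples and 71 to 157.5 in vehicle samples. Of 4 measured neutrophil markers and 8 erythroid markers 0 passed in limma, with sums of 240.9 to 479.5 and 7842 to 358200 in oxaliplatin samples and of 265.3 to 891.5 and 221400 to 570600 in vehicle samples. At an unadjusted p under 0.05 these were 0 neutrophil and 6 erythroid markers. Cd34, a marker of haematopoietic progenitors that endothelial cells also express, rose. Of all markers in the table, Bmp10 (atrial) was at 0 in 3 samples, Ngp (neutrophil) and Krt8 (mesothelial) in 1 sample each, and no other at 0 in any.

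With the endothelial marker score as a covariate 0 of 51 members rose, and 0 of all 13788 genes passed. That score did not overlap between groups, running from -0.13 to 0.54 in oxaliplatin samples and from -0.47 to -0.32 in vehicle samples, so score and drug cannot be told apart in that fit. With the erythroid, macrophage or atrial marker score 20, 22 and 21 members rose. The part of mesothelial, fibroblast and mural cells in the rise of S phase genes was not tested.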

How the data were processed

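RNA sequencing of 9 heart samples was analysed. The authors deposited 1 signal value per gene in each sample, called normalized counts. STAR 2.5.1a, Partek and DESeq2 stand, without role, in the submitters' processing notes. Libraries were made with a SMARTer kit from RNA of integrity above 8, per the labels and design text. The genome build, gene annotation and strand setting were not given in the sources used here. Median-of-ratios factors of the deposited values were equal in all samples. Between 73% and 75.9% of values between 1 and 1000 lay within 0.02 of a whole read, so whole reads were not recovered and no count model was the main test. Voom on reads estimated from these steps was an alternative only.

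The comparison of groups used limma 3.58.1 (R 4.3.3; trend, robust, two-sided) on log2(normalized count + 1). It took in the 13788 genes whose mean reached 10. Benjamini-Hochberg adjustment ran over all of them, at a threshold of 0.05. All fold changes are of log2(normalized count + 1) and so understate changes of low genes. Gene pairs were tested with scipy 1.17.1. The steps were tested on simulated data. The members and lists were chosen with earlier results of these data known. Values in every sample are given for the members with the 2 smallest and the largest p in each role, and for genes of ratios that passed. Pcna, Cdc6 and further members were added after their values were seen. In each other list up to 3 genes of smallest p per direction are named, with Cdkn1a and Mki67. Exon overlap is from GENCODE M21 and promoters are from RefSeq, both on GRCm38, and were matched by symbol. Alternatives were pseudocount, filter, scaling, moderation, a replicate block, voom, each sample left out and marker scores as covariates, of which the endothelial, macrophage and atrial scores were chosen after seeing the data. A marker result is not reported here.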

Additional observations from a re-analysis of the deposited data

Results flagged for a closer look

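In 102 groups of member values, 7 had a sample whose gap to the nearest other exceeded Dixon's 95% critical value, where chance alone flags about 1 in 20. In oxaliplatin samples Mcm10 stood at 68.3 normalized counts in oxaliplatin 3 against a next highest of 25.2, and Rpa1 at 2005 in oxaliplatin 3 against 1809. Pcna stood at 583.2 in oxaliplatin 2 against a next lowest of 800.8, and Rfc3 at 103.9 in the same sample against 173.1. In vehicle samples Mcm6 stood at 219.9 in vehicle 1 against a next highest of 174.3. Tk1 stood at 159.3 in vehicle 4 against 126.7, and Rfc4 at 177.8 in that sample against a next lowest of 305.2.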

How the results depend on the processing

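The number of S phase and replication genes that rose, 19, lay between 13 and 22 in the planned and added alternatives that kept all samples, apart from 0 with the endothelial score. It lay between 15 and 24 with each sample left out, and 0 members fell in any alternative. Of the 19, 15 passed in every fit without 1 sample. All genes that passed numbered between 1110 and 2388 with each sample left out, 1063 with the erythroid score and 0 with the endothelial score. The members' median was 0.73 with the erythroid score. Genes of the other fork and origin list that rose, 8, numbered 4 with a mean of at least 100, between 4 and 9 with each sample left out, and 5 without the 3 samples high in atrial markers. They were 5 with the erythroid score, 5 in voom and 0 with the endothelial score, where Fen1 turned to a log2 fold change of -0.0272. Higher genes made up 64.7% of all that passed, 54.4% after quantile normalization, 79% with equal totals, 75.8% with the erythroid score and 84.6% in voom, which moved the median of all genes by 0.14.

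Of 3 gene ratios that passed, 0 passed with the replicate block, without the 3 samples high in atrial markers or with any single sample left out (0 to 0). Without the 3 samples the smallest exact permutation p is 0.1, and under the block 0.125, both above the threshold, so no pair could pass there. With 1 oxaliplatin sample left out the smallest exact permutation p is 0.0286, and with 1 vehicle sample left out 0.0357, both before adjustment. To pass after adjustment, several pairs would have to lie at or near that smallest p. The calls lost with 1 sample left out therefore do not show dependence on single samples, and the cause of their loss was not tested. With replicate number as a block, which leaves out oxaliplatin 5, 13 members rose and 5 genes of the other list. The numbers do not pair the samples: correlations of same-numbered deviations were -0.27, -0.06, -0.09 and 0.25, and 1 of 8 samples correlated best with its own number. Depth limits members below about 40 normalized counts, whose fold changes shrink with a larger pseudocount.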
